A study of Bos taurus with 9 samples.

Results

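COL1A1, COL1A2 and COL3A1 encode the chains of the fibrillar collagens of types I and III. They were followed as a set of 3 genes by their Ensembl identifiers (ENSBTAG00000013103, ENSBTAG00000013472 and ENSBTAG00000021466, in that order), and all 3 were found among the 21696 genes of the authors' deposited table. The symbols were paired with these identifiers when the set was chosen, since the table itself lists identifiers only. RNA sequencing had been done on frozen intercaruncular endometrium of cattle (Bos taurus), the uterine lining between the caruncles, in 5 samples labelled Short, for a short uterine tract, and 4 labelled Normal. The study asked which genes differ between the groups, in a condition that its title ties to infertility. The labels state neither breed, age, cycle stage or treatment, nor whether each sample is 1 animal, so the errors measure a spread between libraries that may be technical.

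Type I collagen is a helix of COL1A1 chains wound with a COL1A2 chain, and type III collagen is a helix of COL3A1 chains alone. Both are secreted as procollagens, mainly by fibroblasts, trimmed outside the cell and laid down as cross-linked fibrils, which often hold both types. In the uterus they make up much of the matrix of the endometrial stroma, and the tissue remodels that matrix over the cycle and in pregnancy. In whole tissue, fewer stromal cells and less collagen RNA per cell cannot be told apart. The label of the set as stromal genes could not be checked against other stromal markers, because only these 3 identifiers were paired with symbols.

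The deposited table is a result table of DESeq2 and holds no value per sample. Its means are averages of counts divided by size factors over 14 libraries: 5 on the Short side of the contrast, 4 on the Normal side and 5 on neither side, as counted from the genes with a single read. The table's name calls the second group Ctrl, and reading it as the Normal samples is an inference from the study's design and from these numbers of libraries. These 5 libraries also entered the fit that gave the errors. The relative depth of the compared libraries was even, with size factors from 0.945 to 1.112 in Short and from 0.928 to 1.104 in Normal. Library totals were not at hand; the means of all genes summed to 7483809 normalised counts.

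All 3 collagen genes were among the 10 genes with the highest mean normalised count in the endometrium. COL3A1, the chain of type III collagen, had a mean of 52669 normalised counts in the authors' deposited table and stood at rank 4 of all genes. COL1A2, the second chain of type I collagen, had a mean of 28325 and stood at rank 6. COL1A1, its major chain, had a mean of 21318 and stood at rank 9. Together they held 1.37% of the sum of all means, and 26.3% of the part held by the 10 highest genes. Read counts grow with transcript length, and no transcript lengths were used, so this order is one of counts and not of transcripts per cell. The means also cover libraries outside the comparison and are not levels of either group.

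No collagen gene was called different between Short and Normal endometrium. The deposited fold change was below 0 for COL1A1 and COL3A1 and above 0 for COL1A2, and each was smaller than its own standard error. In the authors' deposited table, 0 of the 3 genes passed at an adjusted p-value under 0.05 by the Wald test of DESeq2, adjusted by Benjamini-Hochberg over 16615 genes. Of all tested genes 3.14% passed, 2.24% as lower and 0.891% as higher in Short. At an unadjusted p-value under 0.05 the count was also 0 of 3, where 13.2% of tested genes passed. The median log2 fold change of the set was -0.27, beside 0.04 over all tested genes, and 46.4% of all tested genes had a fold change below 0.

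For COL1A1 the authors' deposited table gives a log2 fold change of -0.32 ± 0.65 (SE), with a DESeq2 adjusted p-value of 0.912. The level in Short was thus 0.802 times that in Normal, with a 95% Wald interval from 0.332 to 1.94 times. This interval holds both a level 3.01-fold lower in Short and a level 1.94-fold higher. Bounds on the average level follow if the deposited fold is taken as the ratio of the groups' average normalised counts. On that reading it could not exceed 37271 normalised counts in the Normal libraries and 29874 in the Short ones. These values are reached only if the 5 other libraries held no COL1A1 reads. The settings of the authors' fit are not stated, so this reading of the fold could not be checked.

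For COL1A2, the partner of COL1A1 in the type I helix, the authors' deposited table gives a log2 fold change of 0.17 ± 0.54 (SE), and the adjusted p-value from DESeq2 was 0.949. The level in Short was 1.12 times that in Normal, with a 95% Wald interval from 0.54 to 2.34 times. The sign is not firm: when the fold changes were centred on a running median over genes ranked by mean, the value became -0.03. By the reckoning used for COL1A1, with the deposited fold, the average level of COL1A2 could not exceed 41209 normalised counts in Normal and 46343 in Short.

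For COL3A1 the authors' deposited table gives a log2 fold change of -0.27 ± 0.55 (SE), and the adjusted p-value from DESeq2 was 0.917. The level in Short was 0.832 times that in Normal, with a 95% Wald interval from 0.393 to 1.76 times. By the reckoning used for COL1A1, its average level could not exceed 90361 normalised counts in Normal and 75185 in Short. How many samples show each direction is not known for any of the 3 genes.

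**Figure D1:**
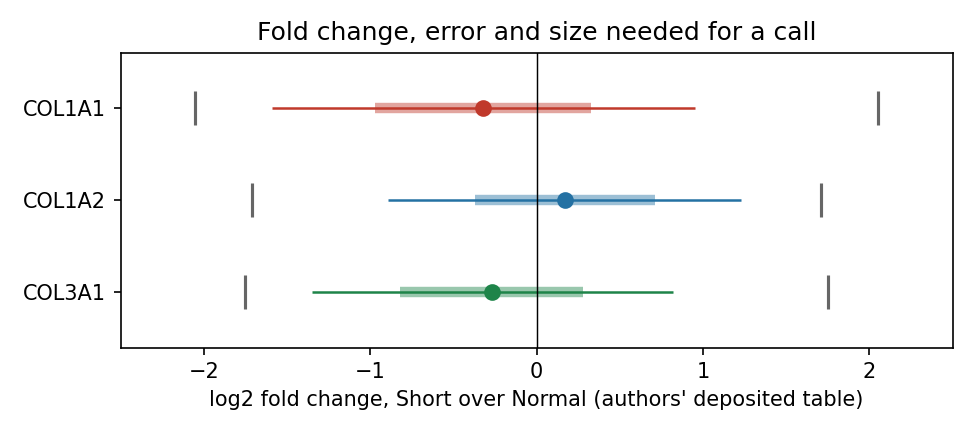
Log2 fold change of Short over Normal (x axis) for the 3 collagen genes (y axis) in the authors' deposited table; points are the fold changes, thick bars 1 standard error to either side, thin lines 95% Wald intervals and grey ticks the size at which a gene with that error would be called. All 3 intervals cross 0 and lie well inside the ticks, which stand at 2.05 for COL1A1, 1.71 for COL1A2 and 1.75 for COL3A1.

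The size of change that could have been called was large for each collagen. The smallest absolute score among called genes was 3.16, so at its own standard error COL1A1 would have needed a 4.15-fold difference. COL3A1 would have needed a 3.36-fold difference and COL1A2 a 3.27-fold one. An observed difference smaller than that would not have been called, so the missing calls do not show that the groups were alike.

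The 3 genes were also set against each other. The type I chains had opposite signs, and the log2 fold change of COL1A1 lay 0.49 below that of COL1A2, a ratio of 1.4 between their folds. COL1A2 lay 0.43 above COL3A1, and COL1A1 lay 0.05 below COL3A1. The table gives no covariance between genes, so none of the 3 differences was tested. For COL1A1 against COL1A2, the standard error of the difference would be 0.84 if the estimates were uncorrelated, and it lies between 0.11 and 1.19 for any correlation. The difference was smaller than the uncorrelated error in all 3 pairs. The other uncorrelated errors were 0.85 for COL1A1 against COL3A1 and 0.77 for COL1A2 against COL3A1. For any correlation, these errors lie between 0.1 and 1.2 and between 0.01 and 1.09. Whether the differences between COL1A2 and the other collagens exceed their errors is thus not known.

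Few genes were as abundant as the collagens. With the collagens themselves left out, COL1A1 had 14 genes with a p-value within 1.5 times of its mean, COL1A2 had 5 and COL3A1 had 3. The 5 genes around COL1A2 are all among the 14 around COL1A1, so these 2 comparisons are not separate. The median log2 fold change of these genes was 0.24 around COL1A1, 0.29 around COL1A2 and 0.33 around COL3A1, all above the collagens' own values. The fold change of COL1A1 was higher than that of 2 of its 14 neighbours, that of COL1A2 higher than 2 of 5, and that of COL3A1 higher than 1 of 3. In size, regardless of sign, 7 of the 14 genes around COL1A1 had a smaller log2 fold change, as had 2 of the 5 around COL1A2 and 0 of the 3 around COL3A1. DESeq2 called 0 genes in any of the 3 windows at an adjusted p-value under 0.05. In each window 1 gene had an unadjusted p-value under 0.05, the same gene around COL1A1 and COL1A2.

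The lean above 0 held over the most abundant genes in general. There were 34 tested genes whose mean reached 10000 normalised counts, the collagens included, and of these 22 had a log2 fold change above 0 and 12 below, with a median of 0.28. None of the 34 was called by DESeq2 at an adjusted p-value under 0.05, and 5 had an unadjusted p-value under 0.05. The running median over genes ranked by mean was 0.19 at COL1A1 and 0.20 at COL1A2 and COL3A1. Relative to the running median, the log2 fold change was -0.51 for COL1A1, -0.03 for COL1A2 and -0.46 for COL3A1. The calls did not change: a Wald test of these values with the deposited errors gave Benjamini-Hochberg adjusted p-values of 0.856, 0.995 and 0.842.

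**Figure D2:**
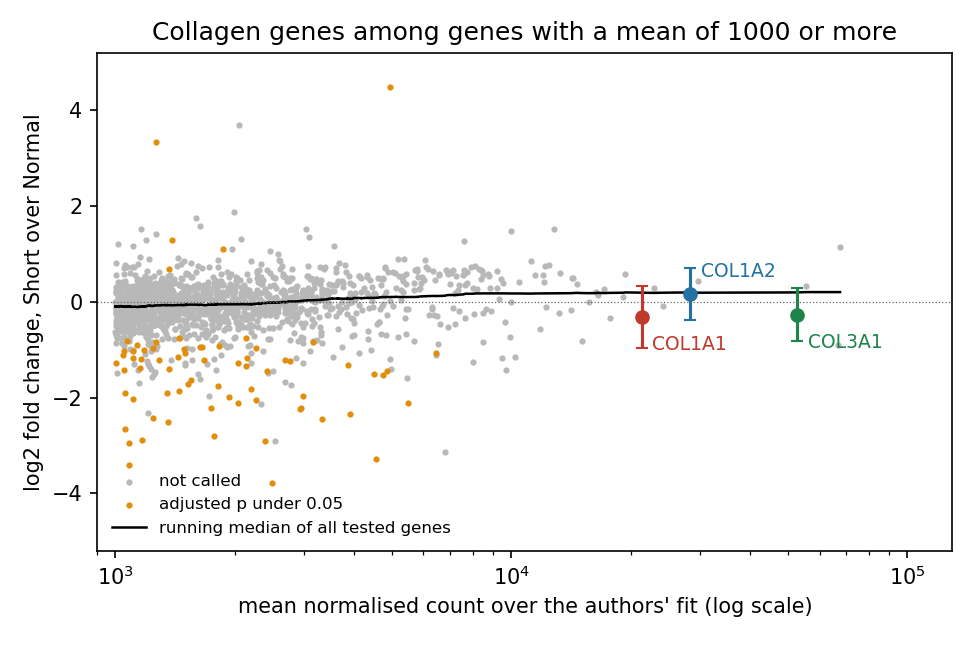
Log2 fold change of Short over Normal (y axis) against the mean normalised count (x axis, log scale) for tested genes with a mean of 1000 or more; the 3 collagens carry error bars of 1 standard error, and the black line is the running median over genes ranked by mean. COL1A2 lies close to the line at 0.20, while COL1A1 and COL3A1 lie below it by less than 1 standard error.

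COL1A1 and COL1A2 had wider errors than most genes of like abundance, while the place of COL3A1 depended on the window. The standard error of COL1A1, 0.65, was larger than that of 11 of the 14 genes within 1.5 times of its mean, whose median was 0.47. That of COL1A2, 0.54, was larger than 4 of 5 with a median of 0.39, and that of COL3A1, 0.55, larger than 2 of 3 with a median of 0.41. Within 2 times of its mean, COL3A1 had a larger error than 2 of the 4 genes outside the set. The median over these 4 genes was 0.59, above the error of COL3A1. Among the 100 genes next below in mean and the genes above, again without the collagens, 95 of 106 had a smaller standard error than COL1A1, 82 of 104 a smaller one than COL1A2 and 81 of 103 a smaller one than COL3A1. Counting noise adds little at such means, and the error then follows mainly the spread that the fit assigns between libraries. An approximate coefficient of variation between libraries, computed from the standard error for groups of 5 and 4, was 67.1% for COL1A1, 55.8% for COL1A2 and 57.1% for COL3A1. The median over the same rank neighbours was 43.7%, 43.4% and 43.4%, but these neighbours reach down to means of 5816, 5879 and 5926. Over the 4 genes within 2 times of the mean of COL3A1 the median was 60.9%, above the value of COL3A1. The fit also held the 5 libraries outside the comparison, and their part in this spread was not tested.

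**Figure D3:**
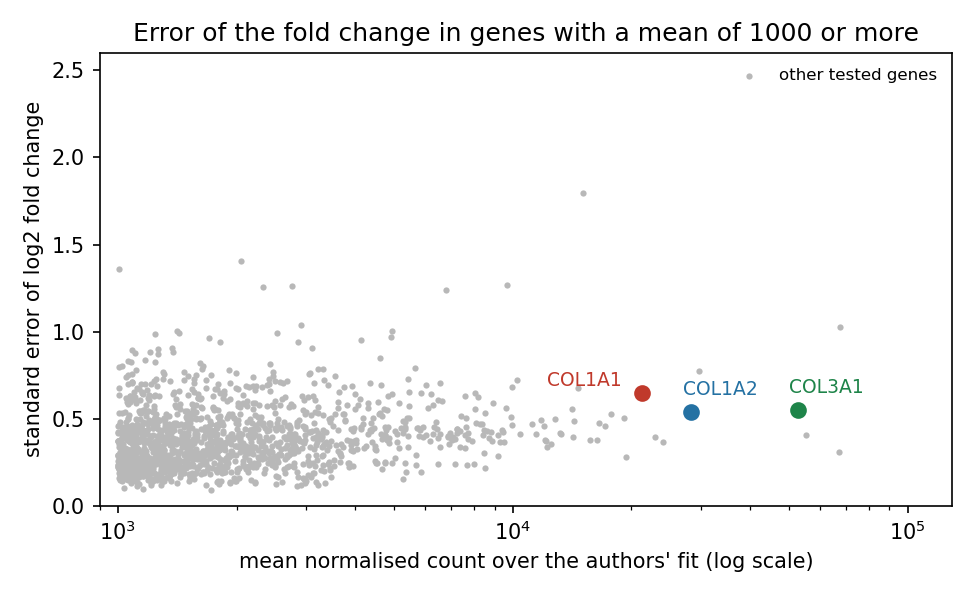
Standard error of the log2 fold change (y axis) against the mean normalised count (x axis, log scale) for tested genes with a mean of 1000 or more in the authors' deposited table; coloured points are the 3 collagens. COL1A1 at 0.65 has the widest error of the set, and COL1A2 at 0.54 and COL3A1 at 0.55 lie close together.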

How the data were processed

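The tools named in the submitters' processing notes are HISAT2, SAMtools, HTSeq and DESeq2, and the build is ARS-UCD1.2. Their versions, roles and settings, strand included, are not stated there. Per the file headers, the deposited table gives for each gene a mean signal (counts over size factors, by the authors), a log2 fold change with its standard error on the log2 scale, a Wald score, a p-value and an adjusted p-value, and a mark for significance (521 genes, all with an adjusted p-value under 0.05). The deposited score equalled the fold change over its error within 4.1e-14, and the adjusted p-values a Benjamini-Hochberg adjustment over 16615 genes within 7.1e-15. With no counts per sample, no model was fitted. Fold changes above 0 were taken to mean a higher level in Short, given the order of groups in the table's name and the 5 and 4 libraries on each side. Libraries were counted from 825 genes whose mean is that of a single read, which fell on 14 values. Intervals, neighbours and re-centred values were computed with Python 3.11.15, numpy 2.4.6, pandas 2.3.3 and scipy 1.17.1, and the functions were tested on simulated data. The approximate coefficient of variation is the root of the squared natural-log error over (1/5 + 1/4), less the reciprocal of the mean, and takes equal group levels and no shrinkage. The named genes are the 3 collagens; lists of collagen enzymes, matrix genes and cell type markers were not used, as the reference table (37063 genes) held 0 Ensembl identifiers. Levels per length were not computed and no sequence is shown, for want of lengths and sequences of the build. The genes and lists were chosen with earlier results of these data known.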

Additional observations from a re-analysis of the deposited data

How the results depend on the processing

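COL1A1 and COL3A1 were not called under any of the 5 alternatives. These were adjustment over all genes with a p-value, a minimum mean of 10 and a score re-centred and rescaled on an empirical null. The others centred the fold changes on the median or on a running median. Changing the adjustment or the minimum mean leaves the fold changes as deposited. Each re-centring lowered the values of all 3 collagens, so the signs of COL1A1 and COL3A1 could not change. COL1A2 kept its sign under 4 of the 5 alternatives, counting those that leave the fold change as deposited. It went to -0.03 with the running median (Benjamini-Hochberg adjusted Wald p-value 0.995), since the running median at its mean exceeds its fold change. The log2 fold change ranged from -0.51 to -0.32 for COL1A1 and from -0.46 to -0.27 for COL3A1, and no adjusted p-value of the 3 genes was below 0.842. For the empirical null, the centre of all scores, 0.11, was subtracted and the result divided by their spread, 1.19. Over all genes, this moved the calls from 521 to 194. Those lower in Short went from 373 to 174 and those higher from 148 to 20. The cause of this spread was not tested. The other alternatives, a threshold of 0.1 included, gave 457 to 706 calls. With neighbours within 2 times of the mean, or the 100 nearest in rank on each side, the collagens' places among them stayed within the counting intervals of the narrow windows, which are wide with 14, 5 and 3 genes. No paired analysis was possible because sample values are not in the table and the numbered sample titles have no number in common between the groups. Without sample values no library could be left out either.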
